A study of Rattus norvegicus with 13 samples.

Results

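The 32 genes of glycolysis, pyruvate and lactate described here encode 13 enzymes of glycolysis, 3 bifunctional enzymes that set the level of its activator fructose 2,6-bisphosphate, 2 lactate dehydrogenase subunits, 5 transporters of lactate and pyruvate, 4 subunits of the pyruvate dehydrogenase complex and 5 enzymes that switch that complex off or on. They were chosen by gene symbol for their place in the pathway, not by measured values, although earlier results of these data were known. Each gene was read from the probe set that the platform annotation assigns to this gene alone, and from the one with the highest mean over the 13 arrays where there were several. The signals of the several short probes in a probe set are summarised as 1 value. All 32 genes were measured, of 14506 genes with such a probe set. No filter on low values was applied, so all 32 were tested.

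Glycolysis splits glucose into pyruvate in the cytosol, lactate dehydrogenase interconverts pyruvate and lactate, and the pyruvate dehydrogenase complex feeds pyruvate into the mitochondrial citric acid cycle. In the brain, which lives mainly on glucose, astrocytes are known for active glycolysis and lactate release, and neurons for taking up lactate and oxidising pyruvate.

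The brains came from 15 month old male Fischer F344 rats, an inbred strain. In the maternal fructose group (6 arrays) the mothers ate high fructose food while pregnant, beginning on gestation day 1, and while nursing, and in the maternal control group (7 arrays) they ate a control diet. Offspring of both groups were weaned on day 20 and then ate standard chow up to the time of sampling. The tissue was the brain without its cerebellum, a mixture of many regions and cell types. A lower signal could therefore come from fewer cells of a type or from less RNA per cell, which cannot be told apart here. The labels do not say which litter an animal came from, or that each array stands for 1 animal of its own, and p-values here reflect only how much these samples varied, which may be technical.

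Signals are on the log2 scale, where 1 unit is a doubling. Levels of different probe sets are not compared with each other, since each has its own response. Neuron markers (10 of 10 measured) had a mean signal of 11.44 to 11.61 in fructose and 11.43 to 11.54 in control arrays. Oligodendrocyte markers (7 of 8 measured) had 10.17 to 10.85 in fructose and 10.01 to 10.84 in control arrays. The fructose mean was higher for 10 of 10 neuron, 7 of 9 astrocyte, 5 of 7 oligodendrocyte and 3 of 8 microglia markers. That share was 54.1% over all probe sets and 67.7% over the bright ones defined below. The part of these markers in the differences below was not tested. Array signals do not reach 0, so the absence of cerebellum could not be read from its markers (8 of 8 measured, with a mean of 7.29 to 7.59 in fructose and 7.28 to 7.49 in control arrays). Control replicates 1 and 2 stood apart by a narrow distribution of values, with interquartile ranges of 2.19 and 2.15, against 2.26 to 2.50 in the other 11 arrays. Results are therefore also given without this pair.

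The starts of 3 of these genes are shown because Pdk1 and Aldoc belong to pairs of genes that varied together across the arrays and Ldha was among the genes that stood high in 1 control array. Each window runs from 250 bases before to 50 bases after the annotated start, on the strand of the gene, from RefSeq on the rat build GRCr8. The windows lie at chr3:77113264-77113563 (plus strand) for Pdk1, chr1:106507842-106508141 (plus strand) for Ldha and chr10:63715294-63715593 (plus strand) for Aldoc. Capitals mark ACGTG or GCGTG on either strand, the core letters bound by hypoxia-inducible factors, which are known to raise many glycolytic genes when oxygen is low.
Pdk1: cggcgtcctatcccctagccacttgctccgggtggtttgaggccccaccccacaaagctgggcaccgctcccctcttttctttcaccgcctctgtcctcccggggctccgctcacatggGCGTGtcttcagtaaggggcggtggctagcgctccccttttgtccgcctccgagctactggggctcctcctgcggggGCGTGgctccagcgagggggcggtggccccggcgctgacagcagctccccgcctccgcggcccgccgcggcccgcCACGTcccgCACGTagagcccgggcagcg
Ldha: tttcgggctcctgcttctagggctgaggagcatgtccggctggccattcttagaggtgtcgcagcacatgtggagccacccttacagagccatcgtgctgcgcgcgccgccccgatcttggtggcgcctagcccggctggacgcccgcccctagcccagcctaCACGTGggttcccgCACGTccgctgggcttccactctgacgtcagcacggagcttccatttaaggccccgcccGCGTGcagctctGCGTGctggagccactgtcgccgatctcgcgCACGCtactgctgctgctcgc
Aldoc: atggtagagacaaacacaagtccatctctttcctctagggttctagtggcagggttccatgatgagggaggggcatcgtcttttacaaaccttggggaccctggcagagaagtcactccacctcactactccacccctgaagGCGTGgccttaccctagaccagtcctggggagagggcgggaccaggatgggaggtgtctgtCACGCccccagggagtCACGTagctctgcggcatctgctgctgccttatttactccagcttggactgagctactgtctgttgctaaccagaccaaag

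Pdk1 had 4 such matches, Ldha 5 and Aldoc 3, with overlapping matches counted once. In Ldha they began at -87, -73, -14, -2 and 30 relative to the start, and in Aldoc at -108, -47 and -31. The table held windows for 30 of the 32 genes. At least 1 match lay in a window of 23 of these 30 genes (76.7%), beside 12253 of all 27457 genes in the table (44.6%). The windows of the 32 genes were also richer in G and C, with a median of 61.7% against 51.7% over all windows, and the part of base composition in the share of matches was not tested. The longer palindrome CACGTG, the E-box read by factors of sugar response, growth and the circadian clock, overlaps these letters and lay in the windows of 5 of the 30 genes (16.7%), Ldha among them, beside 7.1% of all genes. A match describes the letters and does not show that a factor binds there.

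The comparison of the groups asked whether the mother's diet left a lasting difference in the expression of these genes. None of the 32 genes passed an adjusted p of 0.05 in limma, where 0.0% of the 15633 probe sets tested did, and the adjusted p was 0.9998 or higher for every one of them. At an unadjusted p under 0.05 the count was 0 of 32, beside 2.23% of all probe sets (1.33% higher and 0.896% lower in fructose). The ranges of the groups overlapped for all 32 genes, and 0.0384% of all probe sets did not overlap. A size of the difference over 0.1 was seen for 1 of the 32 genes, Aldoc, beside 11.0% of all probe sets. A change beyond 1.2-fold fell outside the 95% interval of 28 of the 32 genes (84.6% of all probe sets), and one beyond 1.5-fold outside that of 32 of 32 (99.0% of all probe sets), with each interval taken singly. The 4 genes with wider intervals than 1.2-fold were Pfkl, Ldha, Pdk4 and Pdp1.

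**Figure D1:**
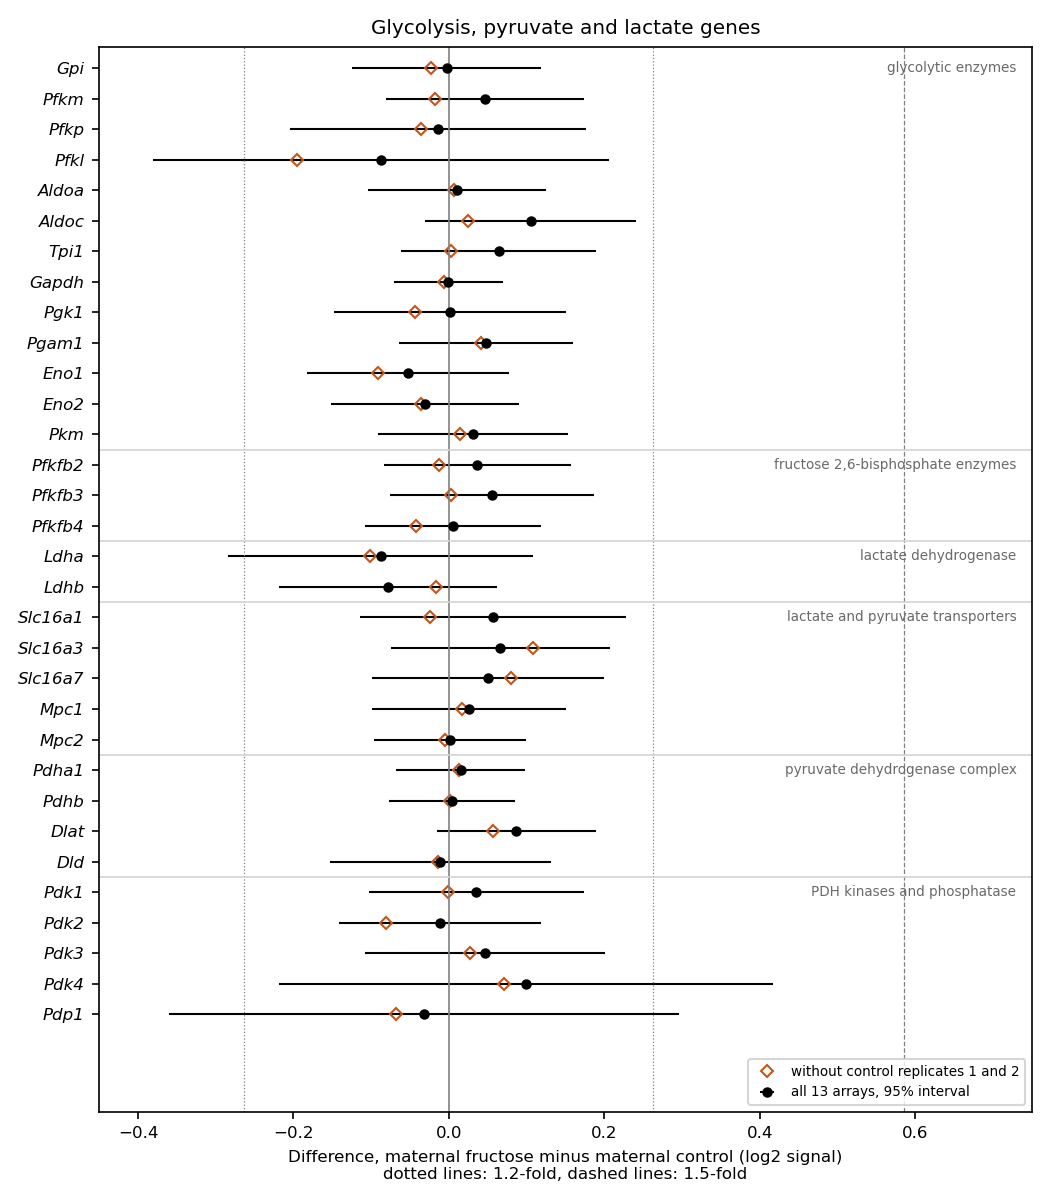
Difference between maternal fructose and maternal control brains (x axis, log2 signal) for each of the 32 genes (rows, by role), with the 95% interval from limma as black bars over 13 arrays and the value without control replicates 1 and 2 as open diamonds. Every interval includes 0 and stays short of a 1.5-fold difference (dashed), and 28 of 32 stay within 1.2-fold (dotted).

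The differences ran from -0.09 (Pfkl) to 0.10 (Aldoc), and 21 of the 32 genes (65.6%) were higher in the fructose group, beside 54.1% of all probe sets. Among the 3991 probe sets at least as bright as the lower quartile of these genes the share was 67.7%, so the count of 21 was near that of other bright probe sets. The median difference of the 32 genes was 0.013, against 0.0056 over all probe sets and 0.021 over the bright ones. Without control replicates 1 and 2, 14 of the 32 genes were higher, beside 51.4% of all probe sets and 1909 of 3991 bright ones. The median was -0.0058, against 0.0022 over all probe sets and -0.0029 over the bright ones. Without control replicate 5 the count was 27 of 32, and the share over other probe sets is not given here. That array held the highest value of 21.9% of the bright probe sets.

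Among the 13 glycolytic enzymes 7 were higher in the fructose group, with a median difference of 0.0014. Gpi, which turns glucose 6-phosphate into fructose 6-phosphate, averaged 12.44 ± 0.05 in fructose and 12.44 ± 0.13 in control brains (SD, n = 6 and 7), with an interval of the difference from -0.12 to 0.12. Phosphofructokinase, the main control point of glycolysis, has 3 subunit genes. Pfkm, the muscle-type subunit, differed by 0.05 (interval -0.08 to 0.17).

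Pfkp, the platelet-type subunit, had a lowest, median and highest signal of 10.61, 10.77 and 10.93 in fructose brains, against 10.61, 10.78 and 11.24 in control brains. The difference was -0.01 ± 0.09 (SE) and it turned to 0.058 without control replicate 5. Pfkl, the liver-type subunit, had 9.43, 9.68 and 9.98 in fructose brains, against 9.25, 9.74 and 10.42 in control brains, a difference of -0.09 ± 0.14 (SE) that turned to 0.020 without control replicate 5 and was -0.19 without control replicates 1 and 2 (unadjusted limma p 0.156). The fructose values of both genes lay inside the control range, and control replicate 5 was the highest array for both.

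The aldolases split fructose 1,6-bisphosphate into trioses. Aldoa, the isozyme of muscle and most tissues, differed by 0.01 (interval -0.10 to 0.13). Aldoc, the isozyme typical of brain and known in astrocytes, had a lowest, median and highest signal of 12.33, 12.36 and 12.48 in fructose brains, against 12.01, 12.35 and 12.45 in control brains. Its difference of 0.10 ± 0.06 (SE) was the largest of the 32, with 6 of 6 fructose values above the control mean, an unadjusted limma p of 0.122 and an adjusted p of 0.9998. The medians nearly coincided, and the lower control mean came with control replicates 1 and 2, at 12.01 and 12.15. Without that pair the difference was 0.024. The astrocyte markers (9 of 10 measured) also had their lowest means in those arrays, 10.21 and 10.23, with 10.43 to 10.61 in fructose arrays and 10.21 to 10.67 in all control arrays, and their part in the Aldoc value was not tested.

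Tpi1, which interconverts the trioses, had 11.77, 11.83 and 11.93 in fructose brains (lowest, median and highest), against 11.61, 11.81 and 11.98 in control brains. Its difference of 0.06 ± 0.06 (SE) was 0.0024 without control replicates 1 and 2, the arrays with its lowest values. Gapdh, which oxidises glyceraldehyde 3-phosphate, averaged 13.49 ± 0.02 in fructose and 13.49 ± 0.03 in control brains (SD, n = 6 and 7), and the interval of the difference ran from -0.07 to 0.07. Its SD within groups, 0.026, was at the 0.115th percentile of all probe sets, and the 17 other probe sets with a mean of 13 or more had a median SD of 0.052.

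Pgk1, which makes the first ATP of the pathway, had 10.54, 10.68 and 10.80 in fructose brains, against 10.55, 10.60 and 10.99 in control brains. The difference was 0.0014 ± 0.07 (SE). It changed sign in 12 of 22 other settings, so no direction can be given. Pgam1, the phosphoglycerate mutase of brain, had 13.06, 13.17 and 13.27 in fructose brains, against 13.01, 13.09 and 13.32 in control brains, a difference of 0.05 ± 0.05 (SE).

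Of the enolases, Eno1, the form of most cells, differed by -0.05 (interval -0.18 to 0.08) and Eno2, the neuronal form, by -0.03 (interval -0.15 to 0.09). Both kept this sign in all 22 other settings, although Eno2 came to -0.0010 and Eno1 to -0.0073 without control replicate 5. Pkm, pyruvate kinase, differed by 0.03 (interval -0.09 to 0.15).

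**Figure D2:**
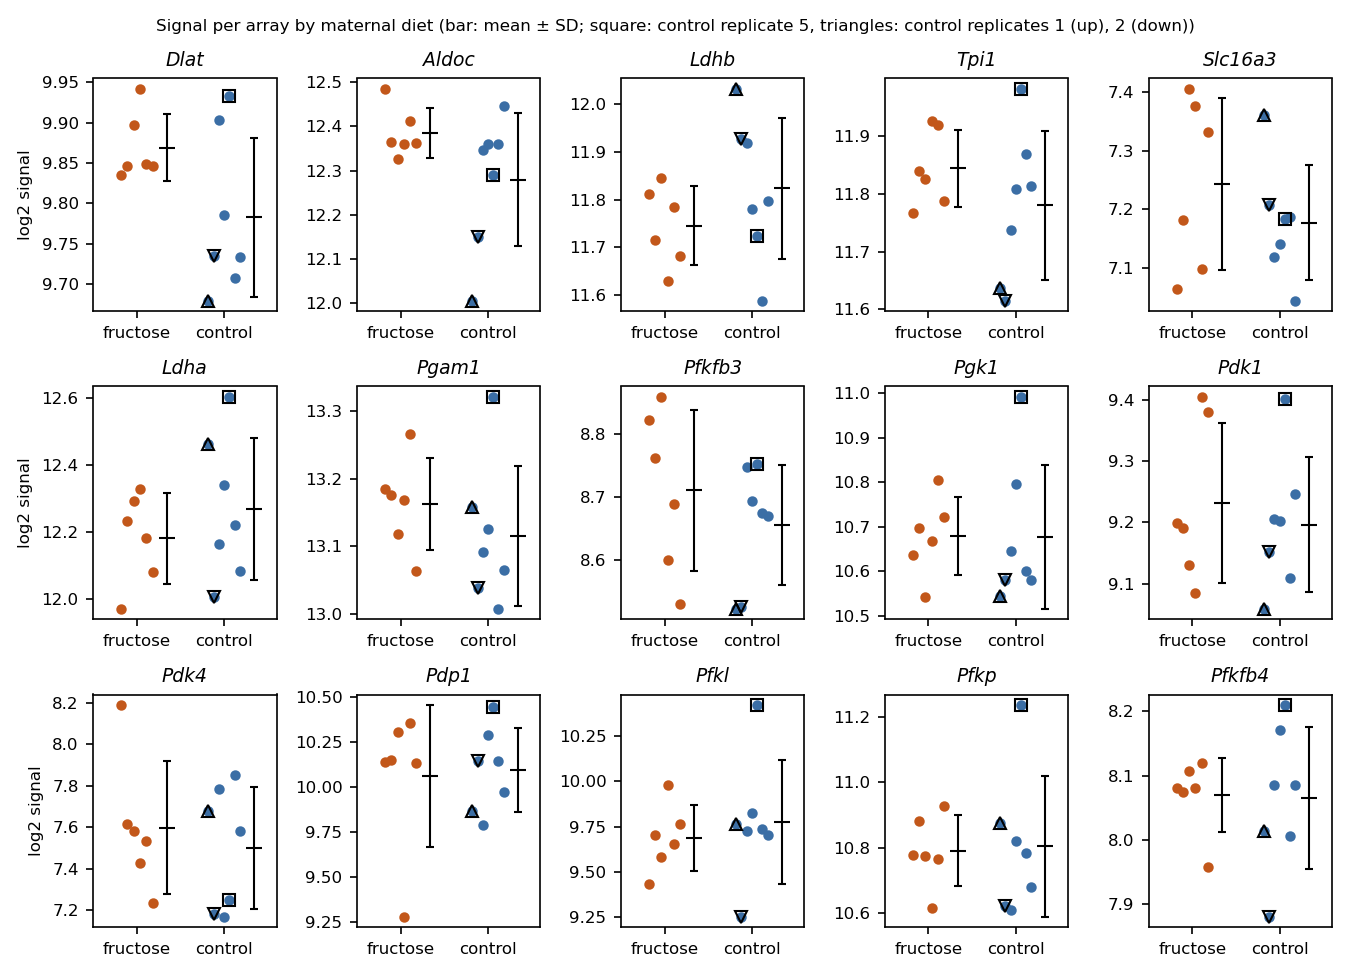
Signal per array (y axis, log2; each panel has its own scale) in maternal fructose (orange, left) and maternal control (blue, right) brains for 15 of the 32 genes, with the mean and SD as a bar beside the points, control replicate 5 in a square and control replicates 1 and 2 in triangles. The groups overlap in every panel, and control replicate 5 is the highest array for Tpi1, Ldha, Pgam1, Pgk1, Pdp1, Pfkl, Pfkp and Pfkfb4.

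Several of these genes were read by more than 1 probe set, and Gapdh by 16. Gapdh is known for its many processed pseudogenes, and probe sets of near-identical copies can share signal, so the 16 are not independent measurements of it. Their group means lay between 13.22 and 13.49 in fructose and between 13.18 and 13.49 in control brains, and their differences between -0.0043 and 0.042, with 14 of 16 higher in the fructose group and 0 at an unadjusted limma p under 0.05. The smallest unadjusted p was 0.263 and the adjusted p was 0.9998 or higher. The 3 probe sets of Eno1 differed by -0.053, -0.045 and -0.030, and the 3 of Pkm by 0.031, 0.031 and 0.020. Pgam1 differed by 0.048 and, at a probe set with a signal of 7.51 in fructose and 7.46 in control brains, by 0.054. Ldha differed by -0.088 and -0.032, Pdha1 by 0.015 and 0.020, and Dlat by 0.086 and 0.080. Apart from Gapdh, the probe sets of a gene had the same sign.

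**Figure D3:**
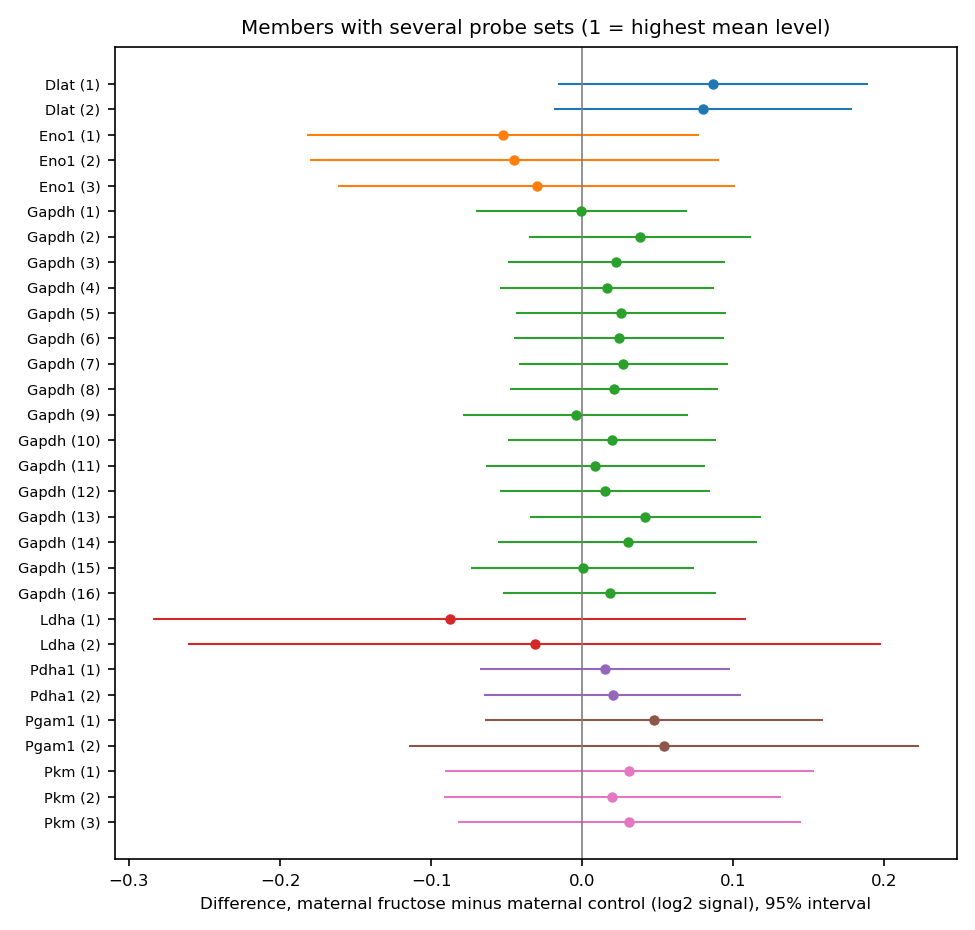
Difference between maternal fructose and maternal control brains (x axis, log2 signal) with its 95% interval for every probe set of the 7 genes that have several, numbered from the brightest. All intervals include 0, and the 16 Gapdh probe sets lie between -0.0043 and 0.042.

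The Pfkfb enzymes make and remove fructose 2,6-bisphosphate, the strongest activator of phosphofructokinase. All 3 were higher in the fructose group, beside 54.1% of all probe sets and 67.7% of the bright ones. Their median difference was 0.036, and 1 of 3 was higher without control replicates 1 and 2. Pfkfb3, the form with high kinase activity that is kept low in neurons, had 8.53, 8.73 and 8.86 in fructose brains, against 8.52, 8.67 and 8.75 in control brains. Its difference of 0.06 ± 0.06 (SE) was 0.0031 without that pair. Pfkfb4 had 7.96, 8.08 and 8.12 in fructose brains, against 7.88, 8.09 and 8.21 in control brains, and its difference of 0.0052 ± 0.05 (SE) changed sign in 7 of 22 settings. Pfkfb2 differed by 0.04 (interval -0.08 to 0.16).

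The 2 lactate dehydrogenase subunits were both lower in the fructose group, by values that did not pass. Ldha, the subunit that favours lactate formation, had 11.97, 12.21 and 12.33 in fructose brains, against 12.004, 12.22 and 12.60 in control brains, a difference of -0.09 ± 0.09 (SE) with an interval from -0.28 to 0.11. The medians nearly coincided, and the difference was -0.032 without control replicate 5. Ldhb, the subunit that favours lactate use, had 11.63, 11.75 and 11.85 in fructose brains, against 11.59, 11.80 and 12.03 in control brains, a difference of -0.08 ± 0.07 (SE). Control replicates 1 and 2 held its top values, 12.03 and 11.93, and without them the difference was -0.017. Both genes kept their sign in all 22 settings.

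All 5 transporter genes had a difference above 0, beside 54.1% of all probe sets and 67.7% of the bright ones. Their median was 0.05, and 3 of 5 were above 0 without control replicates 1 and 2. Slc16a1, the lactate carrier MCT1 of endothelium and glia, averaged 9.06 ± 0.13 in fructose and 9.004 ± 0.17 in control brains (SD, n = 6 and 7), a difference of 0.06 that turned to -0.025 without that pair. Slc16a3, the carrier MCT4 that exports lactate from astrocytes, had 7.06, 7.26 and 7.41 in fructose brains, against 7.04, 7.18 and 7.36 in control brains. Its difference of 0.07 ± 0.07 (SE) was 0.11 without control replicates 1 and 2, where the unadjusted limma p was 0.13 and the adjusted p 0.9525. Slc16a7, the neuronal carrier MCT2, differed by 0.05 (interval -0.10 to 0.20) and by 0.0060 without fructose replicate 3. Mpc1 and Mpc2, which together form the carrier that brings pyruvate into mitochondria, differed by 0.03 (interval -0.10 to 0.15) and 0.0014 (interval -0.10 to 0.10). The Mpc2 difference changed sign in 7 of 22 settings.

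The pyruvate dehydrogenase complex held some of the steadiest of the 32 genes and the one with the smallest p. Pdha1 and Pdhb, the subunits of its first enzyme, had SDs within groups of 0.050 and 0.047, at the 2.82nd and 2.02nd percentile of all probe sets, and differed by 0.02 (interval -0.07 to 0.10) and 0.0041 (interval -0.08 to 0.08). Dlat, the core acetyltransferase, had 9.83, 9.85 and 9.94 in fructose brains, against 9.68, 9.74 and 9.93 in control brains. All 6 fructose values lay above the control mean, while control replicate 5 and control replicate 3 reached into the fructose range. The difference of 0.09 ± 0.05 (SE), with an interval from -0.02 to 0.19, had the smallest unadjusted limma p of the 32 genes, 0.0923, and an adjusted p of 0.9998. It was 0.080 by the other probe set and 0.056 without control replicates 1 and 2. The unadjusted limma p was 0.0239 without control replicate 5 and 0.0416 without control replicate 3, with adjusted p-values of 0.9997 and 0.9999. Those arrays held its highest control values, 9.93 and 9.90, so leaving out either of them could only raise the difference. Dld, the dihydrolipoamide dehydrogenase that other mitochondrial complexes share, differed by -0.01 (interval -0.15 to 0.13).

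The Pdk kinases switch the complex off by phosphorylation and Pdp1 is a phosphatase that switches it on. Pdk1, a known target of hypoxia-inducible factor, had 9.08, 9.20 and 9.41 in fructose brains, against 9.06, 9.20 and 9.40 in control brains, a difference of 0.04 ± 0.07 (SE). Pdk2 and Pdk3 differed by -0.01 (interval -0.14 to 0.12) and 0.05 (interval -0.11 to 0.20).

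Pdk4, the kinase induced by fasting and glucocorticoids, and Pdp1 were the most variable of the 32 genes, with SDs within groups of 0.31 and 0.32. Pdk4 had 7.24, 7.56 and 8.19 in fructose brains, against 7.17, 7.58 and 7.85 in control brains. Its difference of 0.10 ± 0.15 (SE) had an interval from -0.22 to 0.42 and turned to -0.020 without fructose replicate 1, its highest array. Pdp1 had 9.28, 10.15 and 10.36 in fructose brains, against 9.79, 10.14 and 10.44 in control brains. Its lowest value, in fructose replicate 4, stood apart from the next fructose array at 10.13, and without it the difference of -0.03 ± 0.15 (SE) turned to 0.12. The meningeal markers (8 of 8 measured) had their highest mean in the same array, 8.76, with 7.64 to 8.76 over the fructose and 7.48 to 8.61 over the control arrays. The cerebellar markers also had their highest mean of all arrays there, 7.59. Among fructose arrays the neuron markers were lowest in it, 11.44, and the astrocyte markers highest, 10.61. The part of these markers in the Pdp1 value was not tested.

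Across arrays, the 32 genes stood highest in control replicate 5. This array held the highest value of 17 of the 32 genes (53.1%), beside 14.8% of all probe sets and 21.9% of the bright ones, and 28 of the 32 were above their 13-array mean in it. Relative to the other 12 arrays the median of the 32 genes was 0.14 higher in it, against 0.0071 over all probe sets and 0.058 over the bright ones. Pfkl stood at 10.42 in control replicate 5, with a mean of 9.68 ± 0.19 (SD) over the other 12 arrays. Pfkp was 0.48, Ldha 0.41, Pdp1 0.39, Pgk1 0.34 and Eno1 0.32 higher than that mean, whereas Gapdh was 0.00029 higher. Ldhb, Aldoc, Slc16a3 and Pdk4 were below it (-0.07, -0.04, -0.03 and -0.32). The 17 genes with their highest value there included 10 of the 13 glycolytic enzymes.

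The oligodendrocyte, choroid plexus, meningeal and cerebellar markers had their lowest means of all arrays in control replicate 5 (10.01, 6.46, 7.48 and 7.28), and this array also had the widest interquartile range, 2.50. The part of either in the values of the 32 genes was not tested. At the other end, control replicates 1 and 2 each held the lowest value of 7 of the 32 genes, and control replicate 2 had 4 of 32 above their mean. Over all probe sets, control replicate 1 held the lowest value of 10.9% (16.4% of the bright ones) and control replicate 2 that of 18.3% (31.0% of the bright ones).

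**Figure D4:**
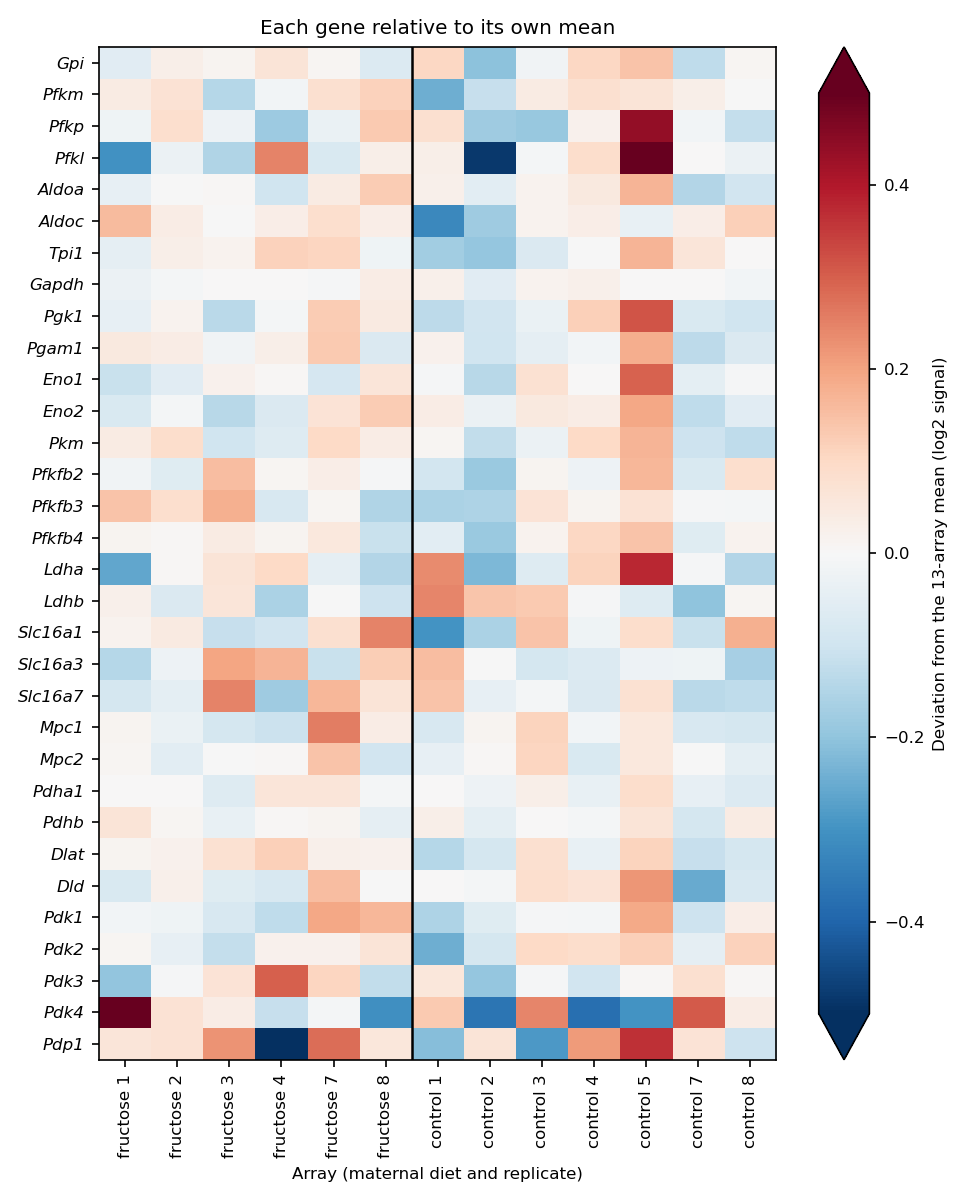
Deviation of each of the 32 genes (rows) from its own 13-array mean (colour, log2 signal, red higher) in each array (columns, 6 maternal fructose on the left and 7 maternal control on the right). Control replicate 5 is red for 28 of 32 genes and control replicate 2 is blue for most, while Gapdh, Pdha1 and Pdhb are pale throughout.

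To see whether partners in the pathway varied together, 22 pairs were correlated over the 13 arrays with permutation tests (100000 resamples, two-sided), adjusted over the 22 pairs. By Pearson's r 2 pairs passed, and by Spearman's rho 0 did, with 3 pairs at an unadjusted p under 0.05. Aldoc and Slc1a3, the glutamate transporter of astrocytes, had r = 0.79 (permutation p = 0.00054, adjusted 0.0119) and rho = 0.75 (permutation p = 0.0045, adjusted 0.099). The 2 arrays farthest from the Aldoc median were control replicates 1 and 2, and r was 0.65 without them. Within the groups r was 0.30 in fructose and 0.77 in control arrays. Pfkfb3 with Slc1a3 had r = 0.45 (adjusted permutation p = 0.265), and 0.0024 without control replicates 1 and 2. Slc16a3 with Slc1a3 had r = -0.25 (adjusted permutation p = 0.542), with -0.23 in fructose and -0.78 in control arrays.

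Pgk1 and Pdk1, both known targets of hypoxia-inducible factor, had r = 0.75 (permutation p = 0.00313, adjusted 0.0344) and rho = 0.65 (permutation p = 0.0186, adjusted 0.205). Without control replicate 5 and fructose replicate 7, the arrays farthest from the Pgk1 median, r was 0.49. Within the groups r was 0.76 in fructose and 0.83 in control arrays. Leaving out 1 array ended the call of Aldoc with Slc1a3 only for control replicate 5 (r = 0.82, adjusted permutation p = 0.0515), and that of Pgk1 with Pdk1 for fructose replicate 7 or control replicate 1, 2, 3 or 5 (r = 0.66 to 0.75, adjusted permutation p = 0.0509 to 0.0946). Neither pair passed after centring or renewed normalization of the arrays, where r was 0.67 to 0.73 and the adjusted permutation p 0.066 to 0.0697.

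Of the pairs that did not pass, Mpc1 and Mpc2 had r = 0.70 (adjusted permutation p = 0.0546) and 0.054 without fructose replicate 7 and control replicate 3, so that relation rests on those arrays. Pdk4 and Fkbp5, both glucocorticoid targets, had r = 0.67 (adjusted permutation p = 0.0546) and 0.63 without the 2 arrays farthest from the Pdk4 median. Without control replicates 1 and 2, r was 0.81 for this pair (adjusted permutation p = 0.0447). Pdk4 with Angptl4, also paired as targets of a shared regulator, had r = 0.30 (adjusted permutation p = 0.512). Ldha with Pgk1, paired for the same reason, had r = 0.46 (adjusted permutation p = 0.265), and -0.0026 without control replicate 5. Slc16a1 and Cldn5, a tight junction gene of brain endothelium, had r = 0.67 (adjusted permutation p = 0.0546) and rho = 0.47. Without control replicates 1 and 2, r was 0.52 for these genes (adjusted permutation p = 0.280), and the pair passed in 1 of 18 other settings. Eno1 and Eno2 had r = 0.62, and 0.30 without control replicate 5, the highest array for both. Pdha1 and Pdhb had r = 0.47, Dlat and Dld 0.44, Ldha and Ldhb -0.04, Aldoa and Aldoc -0.16, and Eno2 with the neuronal nuclear marker Rbfox3 -0.14. None of these 6 passed, with adjusted permutation p-values of 0.077 or more.

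**Figure D5:**
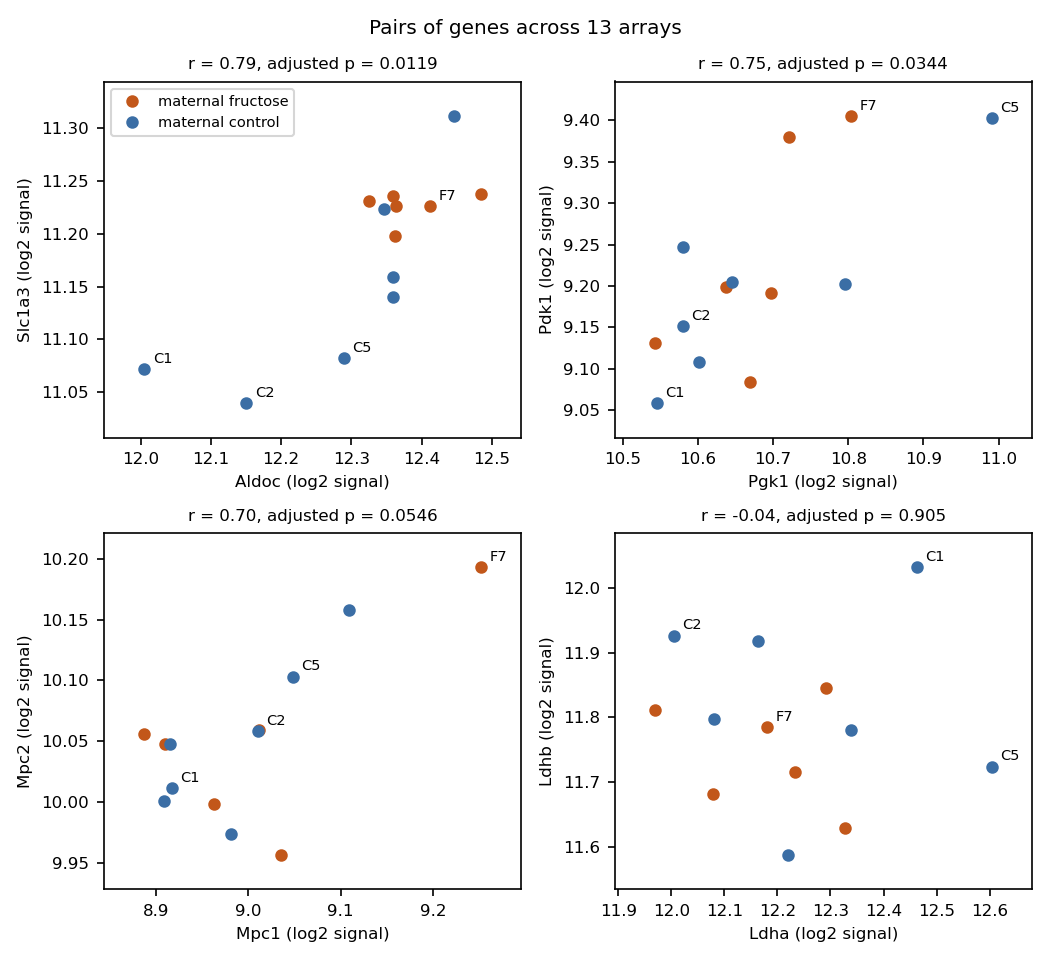
Signals of 4 pairs of genes (both axes, log2) in each array, with maternal fructose in orange, maternal control in blue and control replicates 1, 2 and 5 (C1, C2, C5) and fructose replicate 7 (F7) named. Aldoc and Slc1a3 (r = 0.79) and Pgk1 and Pdk1 (r = 0.75) passed, while Mpc1 with Mpc2 (0.70) and Ldha with Ldhb (-0.04) did not.

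The 44 other gene symbols that were listed were mostly of glucose and lactate handling. Others were Hif1a, Vegfa, Egln3, Bnip3, Esrra and Ppargc1a, genes of the hypoxia response or of mitochondria. Of the 44 symbols, 38 had a probe set of their own. None passed an adjusted p of 0.05. An unadjusted limma p under 0.05 was seen for 2 of 38 (5.26%), 1 in each direction, beside 2.23% of all probe sets. Bnip3, a gene of mitochondrial turnover, had 11.66, 11.81 and 11.92 in fructose brains, against 11.66, 11.68 and 11.75 in control brains. Its difference was 0.11 ± 0.04 (SE; unadjusted limma p 0.022, adjusted 0.9998). Ldhd, the dehydrogenase of D-lactate, had 7.45, 7.58 and 7.67 in fructose brains, against 7.57, 7.69 and 7.76 in control brains, a difference of -0.10 ± 0.05 (SE; unadjusted limma p 0.0392, adjusted 0.9998). Without control replicates 1 and 2 the difference of Bnip3 was 0.12 (unadjusted limma p 0.0196) and that of Ldhd was -0.08, with an unadjusted limma p of 0.121 that no longer passed 0.05. Slc2a1, the glucose transporter of the blood-brain barrier, differed by 0.13 (interval -0.01 to 0.27), and Ppargc1a, a coactivator of mitochondrial genes, by 0.11 (interval -0.02 to 0.23). A second probe set of Bnip3 differed by 0.11 (interval 0.0088 to 0.20). The groups overlapped for all 4 genes.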

How the data were processed

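Total RNA (100 ng) of rat brain without cerebellum was labelled with biotin and hybridised to Affymetrix whole-transcript arrays, 1 per sample, per the labels' protocols. The authors deposited log2 signals per probe set, made with RMA in R 3.0.1 per the submitters' processing notes. RMA normalizes arrays to each other, which can remove a shift shared by most genes, although the deposited values still differed in spread between arrays (interquartile ranges of 2.15 to 2.50). Arrays have no read depth, and their number sets how precise the values are.

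Gene names came from the platform annotation. All 15633 probe sets with a gene were fitted with limma 3.58.1 (R 4.3.3; lmFit and eBayes, fructose minus control, no covariates), with Benjamini-Hochberg adjustment over all of them and no filter on dim probe sets. The script was tested on simulated data. Genes given with full values were the 8 with the smallest p, the most variable, those with an array standing apart by Dixon's test and those in correlated pairs. Members, gene lists, pairs and alternatives were chosen with earlier results of these data known. Alternatives were centring, quantile normalization, cyclic loess, a filter on the 30% dimmest probe sets, array weights, an intensity trend with a robust prior, all probe sets of the table, a replicate block, and leaving out each array or control replicates 1 and 2 together. Replicate numbers, shared by 6 pairs of arrays, are not said to pair them, and the main fit did not use them. Promoter windows came from RefSeq (GRCr8). Protein sequences were not used here.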

Additional observations from a re-analysis of the deposited data

Results flagged for a closer look

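Dixon's test at the 95% level was run on the 64 groups formed by 32 genes and 2 diets. It set 3 values apart, and chance alone would give about 1 in 20 groups, or 3.2. Pdp1, the phosphatase that reactivates pyruvate dehydrogenase, was at 9.28 in fructose replicate 4, against 10.13 in the nearest of the other 5 fructose arrays. Pfkfb4, which sets fructose 2,6-bisphosphate, was at 7.958 in fructose replicate 8, against 8.074 in the nearest fructose array. Pfkp, the platelet-type phosphofructokinase subunit, was at 11.24 in control replicate 5, against 10.88 in the nearest control array.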

How the results depend on the processing

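Over 22 alternatives, 0 of the 32 genes and 0 of all probe sets passed an adjusted limma p of 0.05. The smallest adjusted p of a member was 0.9525, without control replicates 1 and 2. The count of members at an unadjusted p under 0.05, which was 0, lay between 0 and 1 when single arrays were left out, and the gene was Dlat. The number higher in the fructose group, 21, was 16 after renewed quantile normalization or cyclic loess, 19 with array weights, 14 without control replicates 1 and 2, and 17 to 27 without single arrays, with a median difference of 0.0014 to 0.045. The labels do not say that shared replicate numbers pair the arrays. Arrays correlated best with their own number in 0 of 6 pairs (residual r of -0.34 to 0.19). So few pairs cannot settle whether the numbers mark a pairing. With the replicate block, which drops control replicate 5, 1 member (Dlat) and 1 other pathway gene had an unadjusted p under 0.05. In that fit 27 members were higher, and the shares over all probe sets are not given here for either count. The 2 other pathway genes at an unadjusted p under 0.05 became 5 with array weights and 1 to 3 without single arrays. Without control replicates 1 and 2 they became 4 (Bnip3, Hk2, Slc16a8 and Ppargc1a, but not Ldhd). Over all 15633 probe sets the count at such a p also rose in that setting, from 348 to 717. Counts at an unadjusted p over all probe sets are not given here for the other alternatives, so the counts there have no background beside them. The 2 correlated pairs became 0 after centring, quantile normalization, cyclic loess or subtraction of the group means, 1 without control replicates 1 and 2 (Pdk4 with Fkbp5), and 0 to 4 without single arrays.

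None of the differences that changed sign had passed a test, and the cause was not tested. After renewed quantile normalization the sign turned for Aldoa (-0.029), Pgk1 (-0.017), Mpc2 (-0.023), Pdha1 (-0.0057) and Pdhb (-0.016). After cyclic loess it turned for Aldoa (-0.015), Pgk1 (-0.021), Mpc2 (-0.019), Pdha1 (-0.0069) and Pdhb (-0.011). With array weights it turned for Pfkp (0.0090), Aldoa (-0.00070), Pgk1 (-0.025) and Pfkfb4 (-0.017). With the replicate block it turned for Gpi (0.020), Pfkp (0.058), Pfkl (0.020), Dld (0.025), Pdk2 (0.0069) and Pdp1 (0.026). Without control replicates 1 and 2 it turned for Pfkm (-0.017), Pgk1 (-0.044), Pfkfb2 (-0.012), Pfkfb4 (-0.042), Slc16a1 (-0.025), Mpc2 (-0.0048) and Pdk1 (-0.0011). By other probe sets Gapdh differed by 0.030, 0.015, 0.00031, 0.026, 0.0086, 0.019, 0.021, 0.018, 0.027, 0.024, 0.023, 0.039, 0.042 and 0.016. Without single arrays the difference ran from -0.037 to 0.020 for Gpi, -0.046 to 0.058 for Pfkp, -0.17 to 0.020 for Pfkl, -0.014 to 0.040 for Aldoa, -0.0098 to 0.0051 for Gapdh, -0.024 to 0.054 for Pgk1 and -0.026 to 0.029 for Pfkfb4. It ran from -0.023 to 0.050 for Mpc1, -0.027 to 0.020 for Mpc2, -0.010 to 0.015 for Pdhb, -0.054 to 0.025 for Dld, -0.054 to 0.010 for Pdk2, -0.0094 to 0.090 for Pdk3, -0.020 to 0.17 for Pdk4 and -0.092 to 0.12 for Pdp1.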
